A study of Mus musculus with 6 samples.

Results

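The genes described here are 9 transcription factors of neuron formation, listed together for the granule cell lineage of the cerebellum: the proneural basic helix-loop-helix (bHLH) factors Atoh1, Neurog1 and Neurog2, the differentiation bHLH factors Neurod1, Neurod2 and Neurod6, the related factors Nhlh1 and Nhlh2, and the zinc finger factor Insm1. Neurog1, Neurog2 and Neurod6 are better known from other lineages. All 9 factors were taken by name, and all were measured among 22180 genes. Expression was measured on Affymetrix whole-transcript microarrays in 6 mouse medulloblastomas. In 3 tumours (genotype Math1Cre::CrebbpFl/FlSmoM2Fl/+, called knockout here) both copies of Crebbp, a histone acetyltransferase gene, were floxed for deletion by Cre, and in 3 (Math1Cre::SmoM2Fl/+, called wild type) Crebbp was intact. All 6 tumours carried SmoM2, a constitutively active Smoothened that switches on Sonic hedgehog (SHH) signalling once Cre has acted. The inducible recombinase, Math1CreERT2 in the labels, is named after Math1, the older name of Atoh1, a gene described here. Cells in which the recombinase did not act keep Crebbp. Cre was induced in every animal by 1 mg tamoxifen on postnatal day 5, and tumour tissue was taken on postnatal day 60. Nothing in the labels ties a tumour to an animal or litter of its own, so p-values reflect the spread among these 6 samples alone, which may be technical.

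Proneural bHLH factors commit progenitors to a neuronal fate. They bind E-box DNA as dimers with the broadly expressed E proteins, and Id proteins block them by occupying those partners, while HES and HEY repressors act downstream of Notch to hold proneural genes down. In the cerebellum Atoh1 specifies granule neuron progenitors and keeps them responsive to SHH, and Neurod1 acts as these cells stop dividing and mature. Insm1 recruits a corepressor complex with the demethylase Kdm1a and the CoREST scaffold proteins.

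Levels are on the log2 scale, where 1 unit is a doubling, as made by RMA (a method that corrects background, equalises arrays and summarises probes). A change is the knockout mean minus the wild type mean. Levels of different genes come from different probes and are not compared with each other. Where linear levels are summed over a list, the brightest genes weigh most, and the sums are compared between tumours only. Crebbp itself, checked first, had levels of 11.24, 11.34 and 11.20 in knockout tumours, against 11.80, 11.76 and 11.70 in wild type tumours, and its change was -0.50 (SE 0.09, limma adjusted p = 0.0948). The sources used name neither the floxed exons nor the probes' positions, and the share of undeleted cells in the tissue was not measured. Sex-linked transcripts separated the groups as well. Xist had levels of 12.26 to 12.45 in knockout and 5.13 to 5.74 in wild type tumours, and the Y-linked Kdm5d had 4.59 to 4.75 in knockout and 9.32 to 9.37 in wild type tumours. Every comparison that follows is therefore 1 of genotype and sex together, which cannot be told apart. Of 10 genes that mark SHH medulloblastoma and the granule lineage, 9 were measured and all 9 had group means above the 95th percentile of olfactory receptor features (6.59), which served as a guide to dim signal. Neurog1 lay below that guide, with means of 6.42 in knockout and 6.40 in wild type tumours, and the other 8 factors lay above it.

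None of the 9 factors passed a limma adjusted p of 0.05, a rule that 0.207% of all genes met (0.0812% with the knockout lower). In 4 of them, Insm1, Neurod1, Neurod6 and Neurog2, every knockout tumour lay below every wild type tumour, and in 0 did every knockout tumour lie above. Such separation was seen in 19.6% of all genes, 9.43% with the knockout lower and 10.2% with it higher. The same 4 factors had an unadjusted p under 0.05, as did 13.8% of all genes, 6.51% with the knockout lower. The median change over the 9 factors was -0.22, beside 0.00 over all genes, with 6 changes negative and 3 positive. With the other array feature of Neurod1, described with that gene, 3 factors had groups that did not overlap and the median was -0.11. In bulk tissue, fewer cells of a type and less RNA per cell cannot be told apart.

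**Figure D1:**
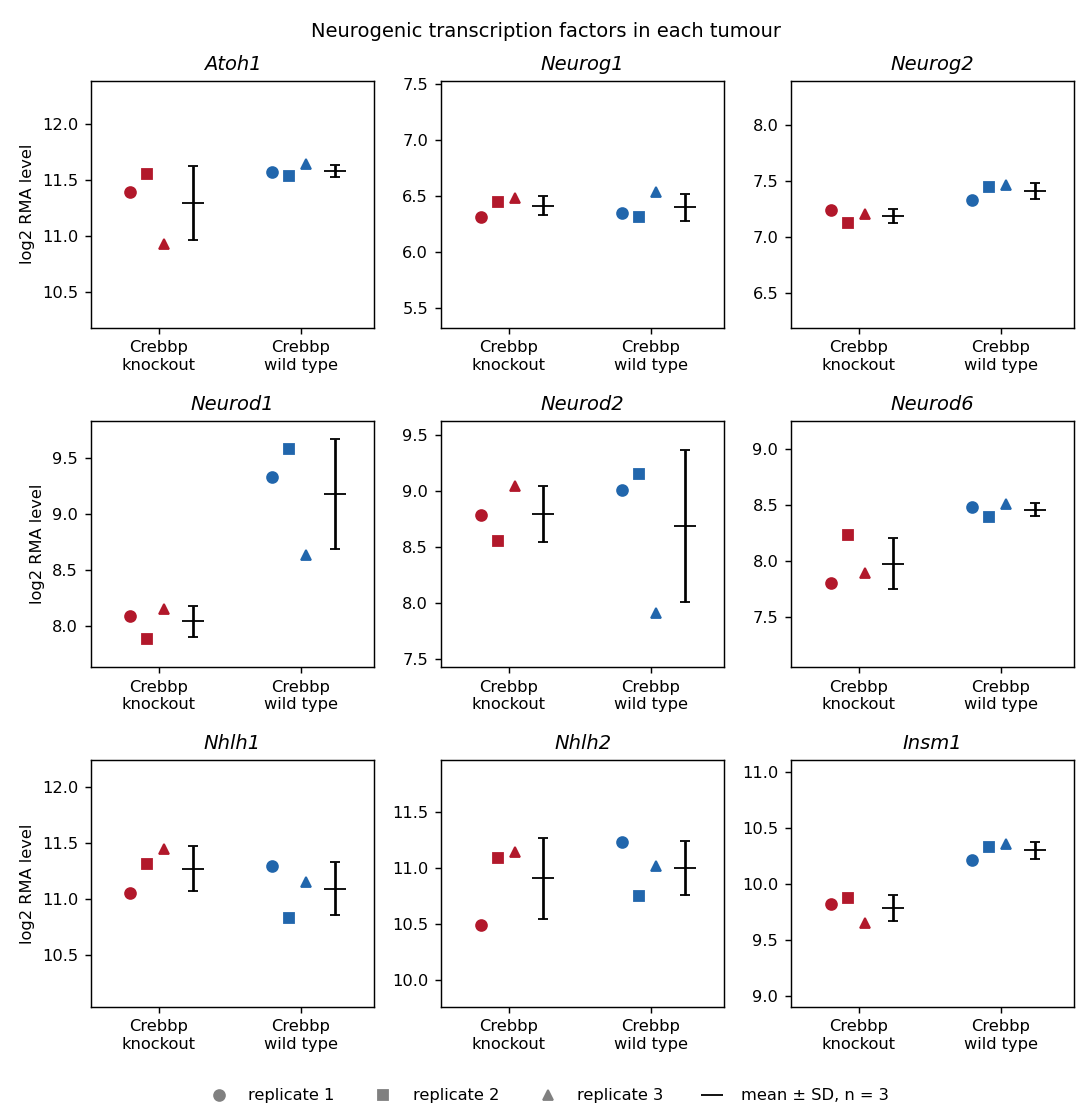
Log2 RMA level of each factor (vertical axis, the same span in every panel) in 3 Crebbp knockout tumours (red) and 3 Crebbp wild type tumours (blue), with the symbol giving the replicate and the bar the mean ± SD. Knockout tumours lie below all wild type tumours for Neurog2, Neurod1, Neurod6 and Insm1, and the groups overlap for the other 5.

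Among the proneural factors, Atoh1, the gene that defines the granule progenitor, overlapped between the groups. It had levels of 11.40, 11.56 and 10.93 in knockout tumours, against 11.57, 11.54 and 11.64 in wild type tumours. Knockout replicate 3 was lowest and knockout replicate 2 lay within the wild type range. The change was -0.28 (SE 0.16, 95% interval -0.65 to 0.08, limma adjusted p = 0.481). The spread was 0.33 (SD, n = 3) in knockout and 0.05 (SD, n = 3) in wild type tumours. Without knockout replicate 3 the change was -0.10.

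Neurog2, a proneural factor of other glutamatergic lineages, had levels of 7.24, 7.12 and 7.21 in knockout tumours, against 7.33, 7.45 and 7.47 in wild type tumours. The groups did not overlap, although the gap between them was only 0.09. Its change of -0.22 (SE 0.09) did not pass over all genes (limma adjusted p = 0.333). Neurog1, which acts in sensory and cerebellar inhibitory lineages, had levels of 6.32, 6.45 and 6.48 in knockout tumours, against 6.35, 6.32 and 6.54 in wild type tumours. The change of Neurog1 was 0.01 (SE 0.10, 95% interval -0.22 to 0.25, limma adjusted p = 0.969), and at this dim level a difference in transcript may not be detectable.

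The differentiation factor Neurod1 gave different values on its 2 array features. The feature annotated to Neurod1 alone, which the selection rule uses, had levels of 8.10, 7.89 and 8.15 in knockout tumours, against 9.33, 9.58 and 8.64 in wild type tumours. All 3 knockout tumours lay below all wild type tumours, and wild type replicate 3 was nearest to them. The change was -1.13 (SE 0.23, 95% interval -1.66 to -0.61), a knockout level 0.455 times that of wild type, and it did not pass (limma adjusted p = 0.121). Without wild type replicate 3 it passed, with a change of -1.41 (limma adjusted p = 0.0180), as did 0.446% of all genes. A brighter feature annotated to both Neurod1 and Cerkl, a ceramide kinase-like gene, had levels of 11.73, 11.81 and 12.05 in knockout tumours, against 12.22, 12.03 and 11.67 in wild type tumours. There the groups overlapped, and the change was -0.11 (SE 0.16, 95% interval -0.48 to 0.25, limma adjusted p = 0.803).

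The changes of the Neurod1 features were unequal. Within an array, the Neurod1 feature minus the shared feature was -3.63, -3.92 and -3.89 in knockout tumours, against -2.89, -2.45 and -3.03 in wild type tumours. The difference of -1.02 between the groups was seen in all 3 knockout tumours, with an exact two-sided permutation p of 0.1, the smallest that 3 against 3 arrays allow.

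**Figure D2:**
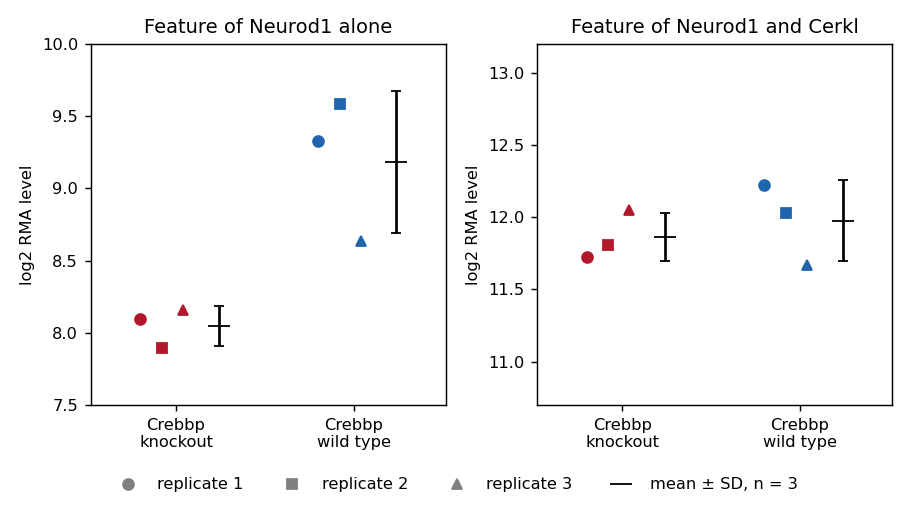
Log2 RMA level on the feature annotated to Neurod1 alone (left) and on the feature annotated to Neurod1 and Cerkl (right), in knockout (red) and wild type tumours (blue), with the mean ± SD and axes of equal span. The groups separate on the left, with knockout tumours between 7.89 and 8.15 and wild type tumours between 8.64 and 9.58, and overlap on the right.

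The place of these features in the array's numbering differed as well. Feature numbers run along each chromosome in stretches of genes on 1 strand. Of the features within 10 places of the Neurod1 feature whose gene has a strand in RefSeq, 17 of 17 belonged to genes on the plus strand, while Neurod1 lies on the minus strand. Around the shared feature 17 of 18 belonged to minus strand genes. The other 7 factors with a strand in the table sat among genes of their own strand, from 10 of 10 neighbours for Neurod2 to 16 of 18 for Neurod6. Over the array 1.86% of 17666 features had, like the Neurod1 feature, no neighbour on their gene's strand. The strand that the probes read is not given in the sources used here. The level of the Neurod1 feature is therefore given as that of the feature, and whether it measures Neurod1 mRNA was not tested.

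Neurod2, which acts in maturing granule neurons, varied within groups more than between them. It had levels of 8.78, 8.55 and 9.05 in knockout tumours, against 9.01, 9.15 and 7.91 in wild type tumours. Wild type replicate 3 lay below all other tumours, and the wild type spread of 0.68 (SD, n = 3) compares with a median of 0.13 over all genes. The change was 0.11 (SE 0.31, 95% interval -0.61 to 0.82, limma adjusted p = 0.918), and without wild type replicate 3 it was -0.28.

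Neurod6, best known from forebrain excitatory neurons, had levels of 7.80, 8.24 and 7.90 in knockout tumours, against 8.49, 8.39 and 8.51 in wild type tumours. The groups did not overlap, and knockout replicate 2 was nearest to the wild type tumours. The change of -0.48 (SE 0.13, 95% interval -0.77 to -0.19), a knockout level 0.716 times that of wild type, did not pass (limma adjusted p = 0.184). Of 8 listed markers of forebrain excitatory neurons, Neurod6 among them, 6 were measured, with 3 changes negative and 3 positive and a median of 0.23. Their summed linear level ran from 1132 to 1406 in knockout and from 1025 to 1150 in wild type tumours. Bcl11b (change 0.62), Slc17a7 (1.14) and Fezf2 (1.15, with a mean at the dim level) had higher values in all knockout tumours, the opposite direction to Neurod6. Slc17a7 is not particular to this list, as it also belongs to the mature granule neuron genes described below. Cux2 (-0.16) was lower in all knockout tumours and the dim Emx1 had a change of -0.18, the same direction as Neurod6.

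To show the DNA just before the start of factors that did and did not separate the groups, the 250 bases upstream of the RefSeq start (build GRCm38.p6, gene strand, 5′ to 3′) are printed for Atoh1 (chr6:64728875-64729124, plus strand), Neurod1 (chr2:79456637-79456886, minus strand) and Neurod6 (chr6:55681264-55681513, minus strand). Capitals mark E-boxes, CANNTG on either strand.
Atoh1: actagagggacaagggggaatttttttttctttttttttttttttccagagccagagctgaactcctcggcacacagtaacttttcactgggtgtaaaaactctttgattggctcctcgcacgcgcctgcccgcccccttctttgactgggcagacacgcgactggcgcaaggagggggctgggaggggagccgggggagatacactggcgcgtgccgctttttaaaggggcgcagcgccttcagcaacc
Neurod1: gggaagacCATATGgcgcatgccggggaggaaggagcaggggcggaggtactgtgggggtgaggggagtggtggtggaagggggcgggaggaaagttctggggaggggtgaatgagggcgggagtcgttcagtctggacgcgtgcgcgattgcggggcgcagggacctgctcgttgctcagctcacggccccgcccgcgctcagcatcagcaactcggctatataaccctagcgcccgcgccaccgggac
Neurod6: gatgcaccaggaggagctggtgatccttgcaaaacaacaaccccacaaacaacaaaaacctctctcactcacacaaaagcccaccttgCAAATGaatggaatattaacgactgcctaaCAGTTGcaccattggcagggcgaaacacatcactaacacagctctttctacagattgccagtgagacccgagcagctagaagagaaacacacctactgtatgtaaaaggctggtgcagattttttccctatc
The Atoh1 window held 0 E-boxes. Atoh1 is known to maintain its own expression through an enhancer downstream of the gene, which this window does not cover. The Neurod1 window held 1, a CATATG that begins 242 bases before the start. The Neurod6 window held 2, CAAATG at 162 and CAGTTG at 132 bases before the start. A window was given for 8 of the 9 factors, and 5 of the 8 held an E-box, against 66.2% of all 32851 windows. Among windows not printed, that of Neurog2, which separated the groups, held 0, as did that of Neurog1, which did not. Those of Neurod2, Nhlh2 and Nhlh1, whose groups overlapped, held 3, 2 and 1. Neurod1 separated the groups on only 1 of its 2 features. The CAGATG form, a subset of CANNTG and a core that proneural factors are known to bind, was in 3 of 8 (Neurod2, Nhlh1 and Nhlh2), against 14.4% of all windows. In all 3 of these factors the groups overlapped. The CATATG form was in 2 of 8 (Neurod1 and Neurod2), against 3.46%. The cyclic AMP response element TGACGTCA, the site of the CREB factors that recruit Crebbp, was in 0 of 8, against 1.55%. These are matches of letters in a short window, with nothing measured about binding.

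Nhlh1 and Nhlh2, bHLH factors of newly formed neurons, overlapped between the groups. Nhlh1 had levels of 11.05, 11.32 and 11.45 in knockout tumours, against 11.29, 10.83 and 11.16 in wild type tumours. Its change was 0.18 (SE 0.15, 95% interval -0.17 to 0.53, limma adjusted p = 0.653). Leaving out single knockout tumours moved the change of Nhlh1 to 0.29 (replicate 1) or 0.09 (replicate 3), and leaving out single wild type tumours to 0.28 (replicate 1) or 0.05 (replicate 2). Nhlh2 had levels of 10.49, 11.09 and 11.14 in knockout tumours, against 11.24, 10.75 and 11.02 in wild type tumours, and knockout replicate 1 was lowest. Its change was -0.09 (SE 0.20, 95% interval -0.55 to 0.37, limma adjusted p = 0.880), and it was 0.12 without knockout replicate 1. Wild type replicate 2 was the lowest wild type tumour for both genes.

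Insm1, the zinc finger repressor of the group, separated the tumours with little spread. It had levels of 9.82, 9.88 and 9.66 in knockout tumours, against 10.22, 10.33 and 10.36 in wild type tumours. The groups were 0.34 apart at their nearest values. The change was -0.51 (SE 0.10, 95% interval -0.74 to -0.29), a knockout level 0.700 times that of wild type, and the gene did not pass (limma adjusted p = 0.115). Leaving out each tumour in turn gave changes from -0.56 to -0.45.

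**Figure D3:**
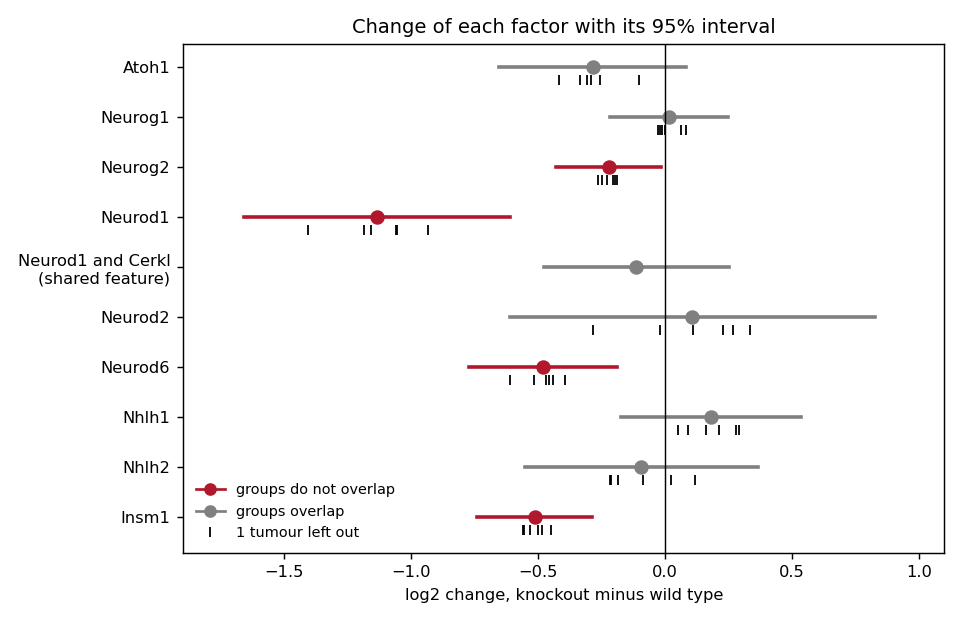
Change of each factor (dot, log2 scale, knockout minus wild type) with its 95% limma interval (line) and the changes with each of the 6 tumours left out (ticks), in red where the groups do not overlap. The interval of Insm1 runs from -0.74 to -0.29, that of the Neurod1 feature from -1.66 to -0.61 and that of the feature shared with Cerkl from -0.48 to 0.25.

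The change of the Neurod1 feature was set against that of Atoh1, as the differentiation and the progenitor factor of the lineage. Within an array, Neurod1 minus Atoh1 was -3.30, -3.67 and -2.78 in knockout tumours, against -2.24, -1.95 and -3.01 in wild type tumours. The groups overlapped through knockout replicate 3 and wild type replicate 3, and the difference of -0.85 had an exact two-sided permutation p of 0.2. With the feature shared with Cerkl the difference was 0.17 (exact permutation p = 0.7), so the direction turned.

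Across the 9 factors the tumours did not order in a common way. Knockout replicate 1 lay below the mean of all 6 tumours for 8 factors, knockout replicate 2 for 4 and knockout replicate 3 for 5, while wild type replicates 1, 2 and 3 did so for 1, 3 and 2. Wild type replicate 3 held the highest value of 5 factors (Atoh1, Neurog1, Neurog2, Neurod6 and Insm1), yet the lowest of Neurod2 and the lowest wild type value of Neurod1.

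By the smallest root mean square difference between centred profiles over the 6 tumours, the genes most like the Neurod1 feature were Scel (0.16), Tmem202 (0.17), Mmp2 (0.18), Sema3d (0.19) and Irx1 (0.22). Scel encodes a protein of cornified epithelia, Mmp2 a matrix metalloproteinase, Sema3d a secreted semaphorin and Irx1 a homeobox factor. Each was lower in every knockout tumour, with changes from -0.97 to -0.89. The level of Scel lay below the dim guide in all 6 tumours and that of Tmem202 in every knockout tumour. Those most like Neurod2 were Unc5b (0.09), a netrin receptor, Pkib (0.09), an inhibitor of protein kinase A, Trhde (0.10), Pi15 (0.11) and Fkbp1b (0.11), and each had its lowest value in wild type replicate 3. These pairings are descriptions over 6 tumours, and the shared patterns follow from choosing the genes by likeness.

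The partners and inhibitors of the bHLH factors showed no shared direction, and 0 of the genes in the lists that follow passed a limma adjusted p of 0.05. Of the 3 E proteins, Tcf12 was higher in all knockout tumours (levels of 11.03, 11.17 and 11.19, against 10.75, 10.88 and 10.91 in wild type tumours, change 0.28), and Tcf4 had a change of -0.16. The 4 Id inhibitors had a median change of 0.04, with Id4 at 0.38 and Id1 at -0.18, and all 4 overlapped between groups. The 8 HES and HEY repressors had 4 negative and 4 positive changes and a median of -0.05. Among them Hes1, the Notch effector, was higher in all knockout tumours (9.09, 8.64 and 8.35, against 8.16, 8.33 and 8.04 in wild type tumours, change 0.52), and Hey2 had a change of -0.38.

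Other neurogenic bHLH factors and Insm2 had changes below 0 in all 11 measured of 13 listed, with a median of -0.19, although Atoh7 (-0.0015) and Atoh8 (-0.011) were near 0. Negative changes made up 49.1% of all genes. In 3, Olig3, Insm2 and the dim Ascl2, the knockout was lower without overlap, as in 9.43% of all genes. Olig1 and Olig2 also belong to the oligodendrocyte list. Without knockout replicate 1 the median was -0.05. Olig3, a bHLH factor of hindbrain progenitors that give rise to the granule lineage, had levels of 10.31, 7.35 and 6.65 in knockout tumours, against 11.06, 10.50 and 11.18 in wild type tumours. Knockout replicates 2 and 3 were far below all others and knockout replicate 1 just below the wild type range. Its change was -2.81 (SE 0.82, limma adjusted p = 0.222). Insm2, the paralogue of Insm1, had levels of 7.11, 6.91 and 6.83 in knockout tumours, against 7.66, 7.53 and 7.58 in wild type tumours, with a change of -0.64 (SE 0.10, limma adjusted p = 0.0797). The levels of Ascl2, Neurog3, Ptf1a and Bhlhe23 lay at those of dim features.

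Of 7 measured corepressor partners of Insm1, 6 had negative changes, with a median of -0.28 (-0.19 without knockout replicate 3), and in 5 all knockout tumours lay below all wild type tumours, as in 9.43% of all genes. Rcor2, a CoREST scaffold, had levels of 10.16, 10.14 and 9.93 in knockout tumours, against 10.54, 10.46 and 10.60 in wild type tumours (change -0.46, limma adjusted p = 0.144). The demethylase Kdm1a had a change of -0.30 (limma adjusted p = 0.236). Of 6 Atoh1 targets known in mouse, 5 had negative changes, with a median of -0.20 (-0.30 without wild type replicate 3), and in 3 the knockout was lower without overlap, against the same 9.43%. The homeobox factors Barhl2 and Barhl1 had changes of -0.47 and -0.32 (limma adjusted p = 0.184 and 0.288).

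Genes of the granule lineage were read by stage, and differences between stages were not tested. Of 10 progenitor genes, 8 had negative changes, with a median of -0.37, and in 7 the knockout was lower without overlap, among them the cyclin Ccnd2 (-0.69) and the zinc finger gene Zic5 (-0.50). In 2, the SHH targets Gli1 and Ptch1, the knockout was higher without overlap. Over all genes the shares were 9.43% lower and 10.2% higher. Of 12 early granule neuron genes, 11 had negative changes, with a median of -0.17 (-0.08 without knockout replicate 1), and Nfib (-0.23) and the cell cycle inhibitor Cdkn1b (-0.31) were lower in all knockout tumours. Of 13 measured genes of mature granule neurons, 11 had positive changes, with a median of 0.62. Cbln3, a synaptic organiser of granule neurons, had levels of 10.48, 8.17 and 10.38 in knockout tumours, against 6.80, 6.99 and 8.36 in wild type tumours. Knockout replicate 2 and wild type replicate 3 lay near each other, so the groups overlapped, and the change was 2.29 (SE 0.65, limma adjusted p = 0.210). The potassium channel Kcnd2 had a change of 0.62 (SE 0.18) with no overlap. The 6 genes of other rhombic lip lineages had a median of -0.01, with Eomes at 0.77 and Otx2 at 0.23.

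**Figure D4:**
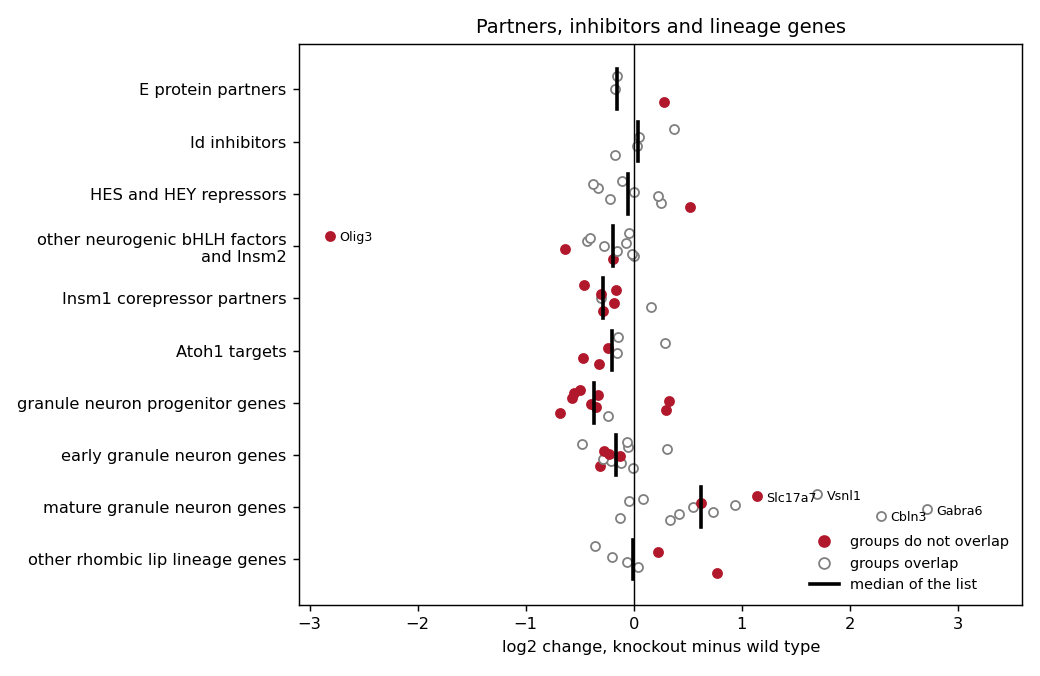
Change of each measured gene (log2 scale, knockout minus wild type) in lists of bHLH partners, inhibitors, related factors and lineage genes, filled where the groups do not overlap, with the median of each list as a bar. Olig3 stands at -2.81, and mature granule neuron genes lie mostly above 0, with a median of 0.62.

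Markers of other cells in the tumour had changes of their own, and their part in the values above was not tested. Markers of Purkinje cells and inhibitory neurons had a median change of 0.45 (11 of 12 measured positive), and their summed linear level ran from 3735 to 6055 in knockout and from 3224 to 3885 in wild type tumours. In that list Gad1 had a change of 0.47 and Lhx1 one of -0.49, and Lhx5, Pax2 and Skor2 lay at dim levels. Astrocyte and Bergmann glia markers had a median of 0.38 (9 of 12 positive), with sums from 22415 to 23636 in knockout and from 13723 to 25162 in wild type tumours, Aldoc had a change of 1.47, and Gja1 had means of 9.64 in knockout and 8.14 in wild type tumours. Wild type replicate 3, the tumour with the lowest Neurod2 and the wild type tumour with the lowest Neurod1 feature, stood apart in this list. Aqp4, a water channel of astrocytes, had levels of 11.26, 11.32 and 11.47 in knockout tumours, against 9.75, 9.67 and 11.49 in wild type tumours. Leaving that tumour out gave a list median of 0.61, and leaving out wild type replicate 2 gave 0.21. Oligodendrocyte lineage markers had a median of -0.25 (8 of 10 negative), or -0.43 when wild type replicate 3 was left out and -0.14 when wild type replicate 1 was. Their sums ran from 7408 to 7507 in knockout and from 8488 to 10359 in wild type tumours. Sox10 and Pdgfra had changes of -0.69 and -0.45. The myelin genes Mobp and Mog had positive changes of 0.91 and 0.06, while Mag, Mbp and Cnp had -0.06, -0.16 and -0.17. For all of these myelin genes the groups overlapped. Markers of microglia and macrophages had a median of -0.35 (11 of 11 negative, against 49.1% of all genes). Their sums ran from 7248 to 9056 in knockout and from 10439 to 11654 in wild type tumours. Fcgr3 and Ctss had changes of -0.79 and -0.57. P2ry12 (-0.03), Tmem119 (-0.06) and Trem2 (-0.07) were near 0, with groups that overlapped.

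Endothelial and pericyte markers had a median change of 0.04 (6 of 10 positive), with sums from 2745 to 3667 in knockout and from 2793 to 3135 in wild type tumours, and Tek and Vwf had changes of 0.50 and -0.35. Markers of unipolar brush cells and cerebellar nuclei had a median of 0.04 over 3 measured, with sums from 269 to 327 in knockout and from 191 to 268 in wild type tumours. Of these Eomes alone lay above the dim level, and Tbr1 had a change of -0.35. All 3 also belong to the list of other rhombic lip lineages. The 9 measured markers of SHH medulloblastoma and the granule lineage, Atoh1 among them, had 6 negative and 3 positive changes, and their median of -0.28 is the change of Atoh1 itself. Gli1, Ptch1, Zic1 and Zic2 also belong to the progenitor list, and Gli2 and Barhl1 to the Atoh1 targets. This list is therefore not independent of those 2. Their sums ran from 24150 to 26597 in knockout and from 27217 to 29341 in wild type tumours. In 3, Gli1 (0.30), Ptch1 (0.33) and the SHH antagonist Hhip (1.46), the knockout was higher without overlap, as in 10.2% of all genes. In 5, Gli2 (-0.24), Sfrp1 (-0.37), Zic1 (-0.33), Zic2 (-0.56) and Barhl1 (-0.32), it was lower without overlap, as in 9.43% of all genes.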

How the data were processed

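The authors deposited log2 expression values. RMA and oligo are the tools listed, per the submitters' processing notes, with versions, genome build and detection calls not given in the sources used. RMA removes any change shared by most genes and compresses changes of dim features. The table held 41345 features on 6 arrays, 3 per group, with array medians from 6.91 to 7.00. The platform annotation gave 23521 features 1 gene symbol, 1814 several and 16010 none here. Per gene, the feature with the highest mean over the 6 arrays was kept, which left 22180 genes, with no filter on level. RefSeq (GRCm38.p6) gave names, chromosomes, strands and promoter windows, and 99.2% of features with 1 symbol matched.

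The deposited values entered a linear model in limma (version 3.58.1, R version 4.3.3) with eBayes, no trend and two-sided tests, and p-values were Benjamini-Hochberg adjusted over all genes, with a threshold of 0.05. The fit was also run on simulated data with independent noise and known changes added. That simulation held no sex or batch difference, so it cannot speak to either in these tumours. Differences within an array were compared by exact permutation of the arrays. The precision is limited by the number of arrays. Titles number the tumours 1 to 3 in each group, but the labels do not say that the same numbers pair the tumours, and the main model did not pair them.

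The members, lists and tests were chosen with earlier results of these data known. From each list, genes past the threshold are named, and where there were none the 2 of lowest p, and genes of like profile were taken for the 2 most variable members above the dim level. Any other gene was named with its values known. Alternatives covered array scaling, dim genes, the variance model, array weights, features per gene, a replicate block, X and Y genes and each array left out. The feature shared by Neurod1 and Cerkl and list medians with each array left out were added after the data were seen.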

Additional observations from a re-analysis of the deposited data

How the results depend on the processing

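Of 160 values of single factors under 18 alternatives, 149 kept their direction and their side of the threshold. Much of this count was fixed in advance. Alternatives on dim genes, the variance model, features per gene, the replicate block and X and Y genes left each change as it was. Only the p-value could move under those. Neurod1 passed without wild type replicate 3 (-1.41, limma adjusted p = 0.0180), where 0.446% of all genes passed, against 0.207% with all tumours. With each tumour left out, 0 to 1 factors and 0.018% to 0.577% of all genes passed. Over the alternatives the limma adjusted p of the Neurod1 feature ran from 0.0180 to 0.295 and that of Insm1 from 0.0520 to 0.294. The feature shared by Neurod1 and Cerkl, another measurement, gave 0.803 and counts among the 149 although its change was only -0.11. The direction turned in 10 values, none of which passed. Neurog1 turned with arrays centred on their median (-0.014) and with 4 single tumours left out (-0.028, -0.019, -0.013 and -0.00037), within a range of -0.028 to 0.084 over all 6. Neurod2 turned with array weights (-0.072) and without wild type replicate 3 (-0.28) or knockout replicate 3 (-0.021), within -0.28 to 0.34. Nhlh2 turned without wild type replicate 1 (0.023) or knockout replicate 1 (0.12), within -0.22 to 0.12. With each tumour left out, 4 to 5 factors had groups that did not overlap, beside 26.9% to 35.7% of all genes at 2 against 3 tumours. The median change ran from -0.26 to -0.19, and Neurod1 minus Atoh1 from -1.15 to -0.63. The median of the 9 factors was -0.28 without the dimmest 50% of genes, where Neurog1 and Neurog2 were not tested, and -0.11 with the feature shared by Neurod1 and Cerkl. With that feature, Neurod1 minus Atoh1 was 0.17 and not -0.85. Medians of the E protein, Id, HES and HEY, other rhombic lip, endothelial, and unipolar brush cell lists lay between -0.16 and 0.04 and moved by more than 1.5 times with single tumours left out, an alternative added after the data were seen. The cause was not tested.

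With the replicate number as a block, 0 factors passed (limma adjusted p = 0.168 for Neurod1 and 0.174 for Insm1), and 12 of all genes, against 46 without it. Deviations of tumours with the same number correlated at -0.03, 0.05 and 0.10 across genes, and those of tumours with different numbers from -0.14 to 0.11. With so few tumours these values cannot show whether tumours of the same number shared a litter or a batch. The 6 arrays limit precision, and neither signal over background nor depth is given.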
